A study of Mus musculus with 6 samples.

Results

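The 10 genes described here belong to cartilage and fibrocartilage. They were followed in RNA-seq of the mouse Achilles tendon. They are a list of named genes, set with no threshold on their values, and comprise the transcription factors Sox9, Sox5 and Sox6, the aggregate-forming pair Acan and Hapln1, the oligomeric and adaptor proteins Comp, Matn3 and Chad, and the cartilage intermediate layer proteins Cilp and Cilp2. All 10 were found among the 54189 features of the count table. The study asked how loss of DICER, the enzyme that cuts miRNA precursors, affects tendon. Its 3 genotypes were Control (Dicer f/f), ScxHt (ScxCre/+, a knock-in of Cre at Scx, with wild-type Dicer +/+) and Dicer cKO (ScxCre/+ with Dicer f/f), all at 4 weeks of age. Cre was driven by Scx, the gene of the tendon transcription factor Scleraxis, so Dicer was floxed in both Control and Dicer cKO, whereas the knock-in allele was shared by ScxHt and Dicer cKO. There was 1 library per genotype, each from 1 mouse, so no test across mice was possible. All intervals below are 95% intervals for counting error only and do not cover the spread between mice.

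Where a tendon passes into bone or is pressed against it, its cells take on features of cartilage. Sox9 is the transcription factor that starts the chondrocyte programme, and Sox5 and Sox6 work beside it to switch on cartilage matrix genes. Aggrecan, the product of Acan, carries many chondroitin sulphate chains that hold water, and the link protein encoded by Hapln1 fastens it to hyaluronan. COMP and matrilins bind collagen fibrils to other matrix molecules, and chondroadherin, the product of Chad, is a leucine-rich protein that binds collagen and cells. The CILP proteins are secreted into the matrix between cells of cartilage and other connective tissues.

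RNA-seq counts added up to 16244232 in Control, 15769301 in ScxHt and 14959399 in Dicer cKO. The 10 genes together held 0.439% of the Control counts, 0.527% of the ScxHt counts and 0.227% of the Dicer cKO counts. Dicer1, counted over the whole gene and not over the floxed part alone, had 1919, 2025 and 1621 reads in Control, ScxHt and Dicer cKO, which put Dicer cKO at 0.877 (0.821 to 0.938) of Control. Because only part of the gene is excised, and only in cells that express Cre, this count does not check the deletion. The samples were whole tendon tissue, in which fewer cells of a type and less RNA per cell cannot be told apart.

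The label of these genes was checked against defining genes of cartilage and bone. Col2a1, the main collagen of cartilage, was read 985 times in Control, 837 in ScxHt and 806 in Dicer cKO. Of the other collagen genes of cartilage, Col11a1 had 21735, 27157 and 15567 reads, Col11a2 7647, 5511 and 5822, and Col27a1 1133, 1112 and 731. The remaining ones on the list were near 0. Col9a1, Col9a2 and Col9a3 had at most 12 reads in any library, and Col10a1, the marker of hypertrophic chondrocytes, at most 4. Matn1 had 0 reads in all 3 libraries, where 3 reads per library is the limit that a count of 0 allows. The bone genes Bglap, Bglap2, Mepe and Sost also had 0 reads, and Sp7 had 0, 3 and 0. Dmp1 and Phex had at most 15 reads in any library. Other genes listed for bone were well above 0, with 2141, 3033 and 583 reads of Ibsp and 101, 112 and 106 of Runx2. Of the genes listed with Col10a1 for hypertrophic chondrocytes, Spp1 had 5412, 9579 and 1506 reads and Alpl 95, 100 and 79, while Mmp13 had at most 4.

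Levels of different genes were compared per length, in RPKM (reads per kilobase of the gene's exons and scaled to the total reads of the library). Chad had the highest RPKM of the 10 genes, with 607 in Control, 652 in ScxHt and 254 in Dicer cKO. Comp followed at 347, 493 and 167, and Cilp2 at 320, 306 and 142. Cilp, Acan and Hapln1 came next in that order, so that the first 6 places were the same in all 3 libraries and no neighbouring pair among them had overlapping counting intervals. The order below them differed. In Control, Sox9 stood above Sox6, Sox5 and Matn3, with intervals apart. In ScxHt, Sox6 and Sox9 had overlapping intervals. In Dicer cKO, Sox6 led, and Sox5, Matn3 and Sox9 followed with overlapping intervals, so that Sox9 held the seventh place of the 10 in Control and the tenth in Dicer cKO.

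**Figure D1:**
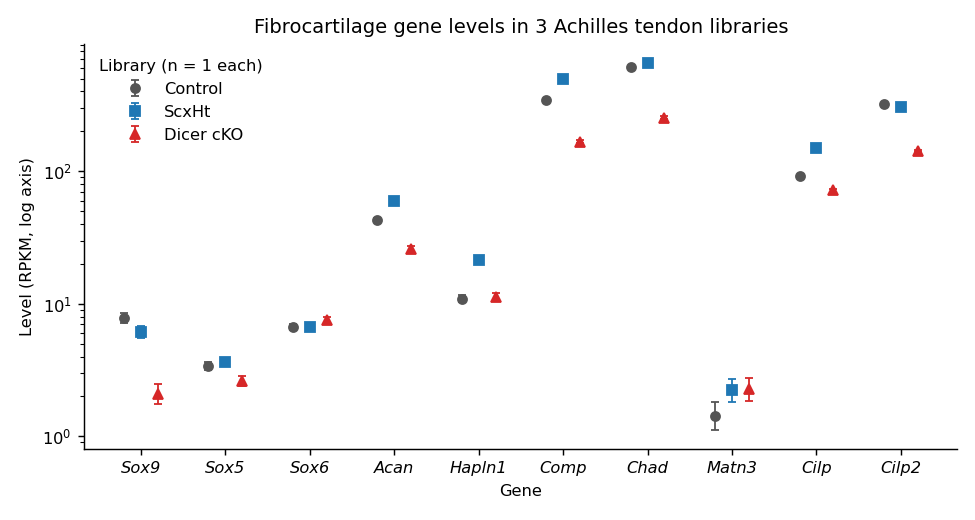
Level of each gene (RPKM, log axis) in the Control (grey circles), ScxHt (blue squares) and Dicer cKO (red triangles) library, with 1 library per genotype and bars for the 95% counting interval. Chad, Comp and Cilp2 lie highest in every library, and the Dicer cKO value is the lowest of the 3 for Sox9, Sox5, Acan, Comp, Chad, Cilp and Cilp2.

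Counts were then compared between libraries as ratios of normalized counts, that is, counts divided by the size factors of the libraries compared. All 10 genes exceeded the minimum baseMean (mean normalized count) of 50 in every comparison. Genes with a ratio below 0.60, the lower threshold, or above its inverse, an upper threshold of about 1.7, were counted as lower or higher. Between Dicer cKO and Control, 5 of the 10 genes were below 0.60 (Sox9, Acan, Comp, Chad and Cilp2) and 0 were above the upper threshold. Over all 13504 genes of that comparison, 4.17% were below 0.60 and 3.87% above the upper threshold. On the log2 scale the median ratio of the 10 genes was -0.61, against -0.03 over all genes. In ScxHt/Control, 0 of the 10 were below 0.60 and 1, Hapln1, was above the upper threshold, where all genes gave 4.73% and 3.05%. The median log2 ratio was 0.18, against 0.02 over all genes. In Dicer cKO/ScxHt, 7 of the 10 were below 0.60 and 0 above the upper threshold, beside 5.68% and 7.67% of all genes, and the median log2 ratio was -1.01, against -0.03. The 3 comparisons are not independent, since each library enters 2 of them.

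**Figure D2:**
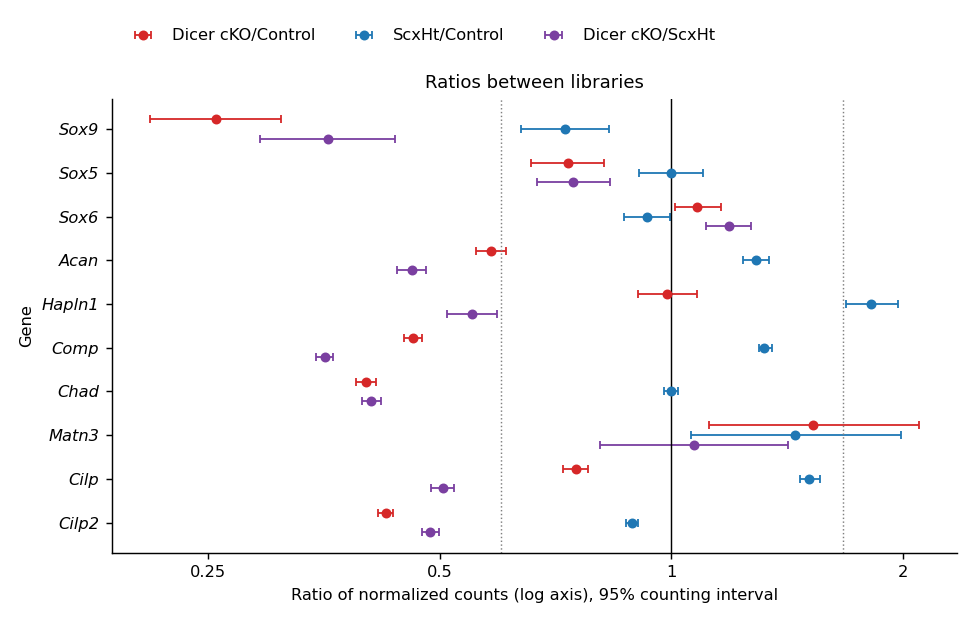
Ratio of normalized counts (log axis) for each gene in Dicer cKO/Control (red), ScxHt/Control (blue) and Dicer cKO/ScxHt (purple), with 95% counting intervals, a solid line at 1 and dotted lines at the lower and upper thresholds. Sox9 has the lowest Dicer cKO/Control ratio (0.256), and Hapln1 has the highest ScxHt/Control ratio (1.82).

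Among the transcription factors, Sox9 was the lowest in Dicer cKO, while Sox5 and Sox6 differed less from Control. Sox9 (GRCm38 chromosome 11, 112782224 to 112787760, plus strand) had 527 reads in Control, 400 in ScxHt and 130 in Dicer cKO. Control was the highest library, ScxHt lay between and Dicer cKO was far below both. Sox9 in Dicer cKO was at 0.256 (0.210 to 0.311) of Control and at 0.358 (0.292 to 0.437) of ScxHt, and in ScxHt it was at 0.727 (0.637 to 0.830) of Control. By its ratio to Control, Sox9 of Dicer cKO ranked 19 from the lowest of 13504 genes. Its Dicer cKO/Control ratio was below 0.60 under all 6 scalings tried, from 0.256 to 0.388. The Dicer cKO/ScxHt ratio was below 0.60 under 5 of the 6, from 0.343 to 0.679.

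Sox5 (chromosome 6, 143828425 to 144781977, minus strand) had 797, 832 and 563 reads in Control, ScxHt and Dicer cKO. Control and ScxHt were alike in normalized counts, at a ratio of 1.0 (0.907 to 1.10), and Dicer cKO was lower, at 0.734 (0.657 to 0.818) of Control. Part of the Sox5 count is uncertain, because 8.98% of the 50-base words of its transcripts also occur in other genes. The antisense gene Sox5os1 lies across 1330 bases of the Sox5 exons. Words were searched on both strands, so this overlap contributes to that share and does not add to it. Sox5os1 itself had 0, 0 and 10 reads.

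Sox6 (chromosome 7, 115470872 to 116038796, minus strand) had 1607, 1559 and 1679 reads. The 3 libraries were close to each other, with Dicer cKO the highest in normalized counts, at 1.08 (1.01 to 1.16) of Control and 1.19 (1.11 to 1.27) of ScxHt. Sox6 is also active in skeletal muscle, where it restrains slow-fibre genes. In Dicer cKO/Control, muscle markers moved in the same direction as Sox6. The 12 muscle genes together held 1.37% of the Control, 1.12% of the ScxHt and 2.68% of the Dicer cKO counts. In Dicer cKO/Control, 10 of the 12 were above the upper threshold, beside 3.87% of all genes. Ckm, for example, had 8151, 7078 and 14254 reads (ratio 1.82). In ScxHt/Control the muscle genes were mixed, with 3 above the upper threshold (Myh4, Actn3 and Pvalb) and 3 below 0.60 (Acta1, Myh1 and Myh2). Over all genes the shares there were 3.05% and 4.73%. The part of the muscle genes in the Sox6 result was not tested.

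Sox9 had a lower Dicer cKO/Control ratio than Sox5 or Sox6, so the proportions of the 3 genes within a library differed. The gene pairs given from here on were chosen after their values were seen. For each 100 reads of Sox9 there were 151 reads of Sox5 in Control, 208 in ScxHt and 433 in Dicer cKO. For Sox6 these were 305, 390 and 1292, a Dicer cKO/Control difference of 4.24-fold (3.45 to 5.19). Proportions of this kind do not depend on how the libraries are scaled. Of the other SOX genes, Sox4 (260, 208 and 251 reads) and Sox13 (191, 145 and 195) exceeded the minimum, with Dicer cKO/Control ratios of 1.0 and 1.06. Sox10, which marks Schwann cells, had 9, 16 and 69 reads. It was highest in Dicer cKO. Of 7 measured Schwann cell genes, 6 had Dicer cKO/Control ratios above the upper threshold, beside 3.87% of all genes. Among them was the myelin gene Mbp with 195, 183 and 1403 reads. The 8 listed Schwann cell genes held 0.0239%, 0.0311% and 0.0740% of the counts.

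Of the aggregate-forming pair, Acan was lower in Dicer cKO and Hapln1 was at its Control level. Acan (chromosome 7, 79053483 to 79115099, plus strand) had 5201 reads in Control, 7003 in ScxHt and 2921 in Dicer cKO. ScxHt was the highest library and Dicer cKO the lowest. Dicer cKO was at 0.583 (0.557 to 0.610) of Control and 0.460 (0.440 to 0.480) of ScxHt, and ScxHt at 1.29 (1.24 to 1.34) of Control. The Acan interval for Dicer cKO/Control holds 0.60, and the gene was below 0.60 in 4 of 6 scalings.

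Hapln1 (chromosome 13, 89539796 to 89611652, plus strand) had 1046 reads in Control, 1991 in ScxHt and 995 in Dicer cKO. ScxHt stood apart above the other libraries, which were alike. Dicer cKO/Control was 0.988 (0.905 to 1.08), an interval that holds 1, ScxHt/Control was 1.82 (1.69 to 1.97), and Dicer cKO/ScxHt was 0.551 (0.510 to 0.594). The number of Hapln1 reads per 100 Acan reads was 20.1 in Control, 28.4 in ScxHt and 34.1 in Dicer cKO, so that link protein reads were most frequent beside aggrecan in Dicer cKO (1.69-fold over Control, 1.54 to 1.87). Acan reads per 100 Sox9 reads were 987, 1751 and 2247, lowest in Control and 2.28-fold higher in Dicer cKO (1.87 to 2.77).

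Comp and Chad were both lower in Dicer cKO by more than 2-fold, and Matn3 was not. Comp (chromosome 8, 70373558 to 70382066, plus strand) had 16710 reads in Control, 23084 in ScxHt and 7418 in Dicer cKO. ScxHt was the highest library and Dicer cKO the lowest, at 0.461 (0.449 to 0.474) of Control and 0.354 (0.345 to 0.363) of ScxHt. The ScxHt/Control ratio was 1.32 (1.30 to 1.35). The proportion of Comp to Thbs4, the gene of thrombospondin 4 from the same family, was close in the 3 libraries. There were 35.4, 35.3 and 32.4 Comp reads per 100 Thbs4 reads, which put ScxHt at 0.997 (0.974 to 1.02) and Dicer cKO at 0.915 (0.887 to 0.945) of Control. Against Fmod, the gene of the tendon proteoglycan fibromodulin, there were 16.8, 20.7 and 17.1 Comp reads per 100, so Dicer cKO was at 1.01 (0.984 to 1.04) of Control.

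Chad (chromosome 11, 94565047 to 94569127, plus strand) had 16553 reads in Control, 17282 in ScxHt and 6389 in Dicer cKO. Control and ScxHt were alike, with a ratio of 1.0 (0.979 to 1.02), and Dicer cKO was below both, at 0.401 (0.389 to 0.413) of Control and 0.407 (0.396 to 0.419) of ScxHt. Chad lies within the span of Acsf2 on the opposite strand, with no exon bases in common. Acsf2 had 345, 356 and 283 reads, far fewer than Chad, and a Dicer cKO/Control ratio of 0.852 (0.725 to 1.0).

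Matn3, a matrilin of cartilage (chromosome 12, 8947929 to 8972028, plus strand), was the gene with the fewest reads, 70 in Control, 106 in ScxHt and 103 in Dicer cKO. Control was the lowest library. Dicer cKO/Control was 1.53 (1.12 to 2.10) and ScxHt/Control 1.45 (1.06 to 1.99), while Dicer cKO/ScxHt was 1.07 (0.808 to 1.42), an interval that holds 1. Matn3 reads per 100 Comp reads were 0.419, 0.459 and 1.39 in Control, ScxHt and Dicer cKO. The counts of Matn3 are small, and its intervals were the widest among the 10 genes for these ratios.

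The CILP genes parted in both comparisons with Control. Cilp (chromosome 9, 65265180 to 65280605, plus strand) had 6309 reads in Control, 9965 in ScxHt and 4560 in Dicer cKO. ScxHt was the highest library, at 1.51 (1.47 to 1.56) of Control, and Dicer cKO was the lowest, at 0.751 (0.722 to 0.780) of Control and 0.504 (0.487 to 0.522) of ScxHt. Cilp2 (chromosome 8, 69880369 to 69887687, minus strand) had 22451, 20816 and 9188 reads. Control and ScxHt were near each other, at 0.888 (0.872 to 0.905), and Dicer cKO was far below, at 0.425 (0.415 to 0.435) of Control and 0.486 (0.474 to 0.498) of ScxHt. There were 28.1 Cilp reads per 100 Cilp2 reads in Control, 47.9 in ScxHt and 49.6 in Dicer cKO. Control was thus the library that stood apart, since the proportion in Dicer cKO differed from that in ScxHt by 1.04-fold (0.993 to 1.08). Both of the libraries with more Cilp per Cilp2 carried the ScxCre allele, and with 1 mouse each, allele and mouse cannot be told apart. Comp and Cilp2 lie 486 kb from each other on chromosome 8. None of the 50-base words of Sox9, Sox6, Acan, Comp, Matn3, Chad, Cilp or Cilp2 transcripts occurred in another gene, so the members of a family did not share such words.

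**Figure D3:**
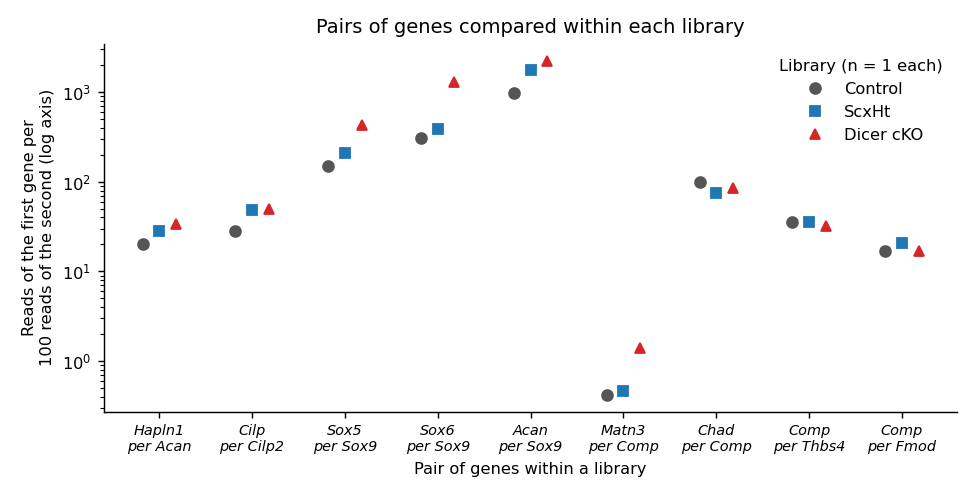
Reads of the first gene per 100 reads of the second (log axis) in the Control (grey circles), ScxHt (blue squares) and Dicer cKO (red triangles) library for 9 pairs of genes, with 1 library each. The pairs with Sox9 as the second gene run from Control up to Dicer cKO (Sox6 per 100 Sox9 from 305 to 1292), and Comp per 100 Thbs4 stays between 32.4 and 35.4.

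For the promoters, the 250 bases before the RefSeq start of transcription (GRCm38.p6) were read for the 8 genes in the table of promoters, in 13 windows. Sox9 and Comp had no entry. Letters of 3 motifs were searched on both strands, ACAAT as the core bound by SOX proteins, CATCTG as an E-box bound by Scleraxis, and TATAAA as the TATA box. ACAAT was found in 27.7% of 32851 windows of the same length and in 6 of the 13 windows, 3 of Sox6 and 1 each of Sox5, Hapln1 and Cilp2. Sox6 has 6 of the 13 windows. CATCTG was found in 14.4% of all windows and in 2 of the 13, both of Sox6. TATAAA was found in 12.4% of all windows and in 2 of the 13, 1 each of Chad and Sox6. The windows of Hapln1, of Cilp2 and of Sox6 start sites 1, 3 and 4 overlap annotated exons. Both windows with CATCTG and the ACAAT windows of Hapln1, Cilp2 and Sox6 start site 3 are among these. The windows of Sox5, Hapln1 and Cilp2 and most of those of Sox6 lie within the gene spans given above. The windows of Chad and Acan are shown as examples of genes that were lower in Dicer cKO, and that of Matn3 as a gene that was not. The window of Cilp2, which was also lower, holds an ACAAT and is not shown. The windows shown lie at chr11:94564797-94565046, chr7:79052976-79053225 and chr12:8947679-8947928, all on the plus strand. They are printed 5′ to 3′ with matches to the 3 motifs in capitals. The window of Chad holds a TATAAA, and those of Acan and Matn3 hold none of the 3 motifs.
Chad: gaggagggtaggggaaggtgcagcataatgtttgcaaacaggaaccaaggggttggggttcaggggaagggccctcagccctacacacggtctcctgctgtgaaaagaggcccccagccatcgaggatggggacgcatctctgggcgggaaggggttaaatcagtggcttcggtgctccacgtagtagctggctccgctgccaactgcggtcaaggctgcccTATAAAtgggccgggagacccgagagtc
Acan: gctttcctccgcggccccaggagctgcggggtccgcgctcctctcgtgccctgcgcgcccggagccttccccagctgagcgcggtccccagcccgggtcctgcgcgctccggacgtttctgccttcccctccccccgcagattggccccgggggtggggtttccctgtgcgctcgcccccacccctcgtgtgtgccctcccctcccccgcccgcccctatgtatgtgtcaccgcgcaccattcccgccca
Matn3: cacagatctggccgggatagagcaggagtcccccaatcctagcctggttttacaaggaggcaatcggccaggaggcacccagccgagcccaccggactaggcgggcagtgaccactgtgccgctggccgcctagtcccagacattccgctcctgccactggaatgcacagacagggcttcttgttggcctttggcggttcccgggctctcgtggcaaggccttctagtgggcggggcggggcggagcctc

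A match of letters is a description of the window and not a site of binding. The G and C content of these windows was 60.4% for Chad, 74.4% for Acan and 65.2% for Matn3.

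Other genes of cartilage and enthesis were read beside the 10. Of 8 cartilage collagen genes, 4 exceeded the minimum (Col2a1, Col11a1, Col11a2 and Col27a1), and 0 of them passed either threshold in any comparison. Over all genes, the shares past a threshold in these comparisons ran from 3.05% to 7.67%. The Dicer cKO/Control ratios were 0.850 for Col2a1, 0.744 for Col11a1, 0.791 for Col11a2 and 0.670 for Col27a1, with a median log2 ratio of -0.38. Col2a1 thus had a higher ratio than Sox9, Acan, Comp or Chad in the same library.

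Among 10 other cartilage matrix genes, 9 were found by symbol. Of the 4 above the minimum, 3 were below 0.60 in Dicer cKO/Control, beside 4.17% of all genes. Prelp, a leucine-rich matrix protein that anchors basement membranes, had 9313 reads in Control, 8716 in ScxHt and 1486 in Dicer cKO, a Dicer cKO/Control ratio of 0.166. Prg4, the gene of lubricin, which lubricates joint and tendon surfaces, had 14611, 25054 and 6761 reads, and its ratio was 0.481. Ucma, a secreted protein of early cartilage, had 95, 87 and 44 reads, also a ratio of 0.481. Prelp and Ucma were low in Dicer cKO alone, whereas Prg4 was also 1.64 times higher in ScxHt than in Control. Their median on the log2 scale was -1.06. Hapln3, another link protein gene, did not reach the minimum of 50 in Dicer cKO/Control and had 79, 77 and 9 reads, a ratio of 0.118. Its annotated 3′ end lies 2 bases from that of Acan on the opposite strand.

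Of the signals of the growth plate and enthesis, Gdf5, a growth factor of joints and entheses, was the gene above the minimum that passed a threshold. Of 15 genes, 10 exceeded the minimum in Dicer cKO/Control, 1 was below 0.60 and 0 were above the upper threshold. The shares over all genes were 4.17% and 3.87%, and for 10 genes a count of 1 is near such a share. The median log2 ratio of the 10 was -0.33. Gdf5 had 152 reads in Control, 317 in ScxHt and 62 in Dicer cKO. It was highest in ScxHt and lowest in Dicer cKO, as Acan, Comp and Cilp were, at 0.424 of Control and 0.215 of ScxHt in Dicer cKO and at 2.0 times Control in ScxHt. Ihh, the hedgehog ligand of the growth plate, had 0, 1 and 2 reads, while the hedgehog receptor Ptch1 had 594, 475 and 521 reads and its Dicer cKO/Control ratio was 0.911.

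The enzymes and transporters that build chondroitin sulphate, the sugar chain of aggrecan, were measured for all 11 genes listed. Of the 11, 3 were below 0.60 and 0 above the upper threshold in Dicer cKO/Control, beside 4.17% and 3.87% of all genes. The median log2 ratio was -0.53, against -0.03 over all genes. Xylt1, which adds the first sugar of the chain, had 1434, 1491 and 708 reads and a ratio of 0.513. Chsy3, which lengthens the chain, had a ratio of 0.570 and Ugdh, which makes a sugar precursor, 0.591. Dicer cKO was the lowest library for each of these 3 genes. In ScxHt/Control, 0 of the 11 passed either threshold, beside 4.73% and 3.05% of all genes, with a median log2 ratio of 0.07.

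Of 9 genes of proteases that cut aggrecan or COMP and of their inhibitor Timp3, 7 exceeded the minimum. Of these, 0 passed a threshold in Dicer cKO/Control or ScxHt/Control, where the shares over all genes ran from 3.05% to 4.73%. Adamts5, a main aggrecanase, had 2211, 2495 and 1372 reads and a Dicer cKO/Control ratio of 0.644. Adamts7, which cuts COMP, had 115, 75 and 169 reads. It was highest in Dicer cKO, at 2.48 times ScxHt, while Mmp3 (184, 280 and 120 reads) was at 0.472 of ScxHt. Their median log2 ratio in Dicer cKO/Control was -0.53.

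**Figure D4:**
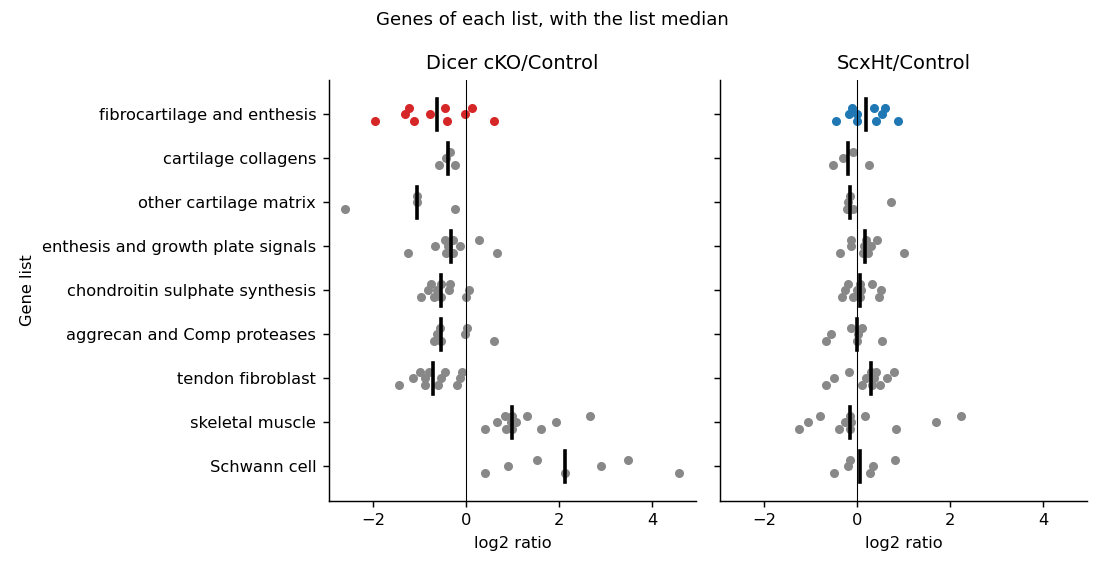
Log2 ratio of each gene with a baseMean above 50 (points) and the median of its list (bars) in Dicer cKO/Control and ScxHt/Control, on the same scale. In Dicer cKO/Control the 10 fibrocartilage and enthesis genes have a median of -0.61 beside -0.70 for tendon fibroblast genes, 0.99 for skeletal muscle genes and 2.12 for Schwann cell genes.

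Markers of the main cells of tendon were lower in Dicer cKO, to differing degrees, alongside most of the 10 genes. The 12 tendon fibroblast genes held 13.8% of the Control, 12.4% of the ScxHt and 8.05% of the Dicer cKO counts. Most of these counts came from Col1a1 (1261322 reads in Control) and Col1a2 (708695). In Dicer cKO/Control, 6 of the 12 were below 0.60, beside 4.17% of all genes, and the median log2 ratio of the 12 was -0.70. Their ratios ran from 0.365 for Scx to 0.948 for Tnmd, with Mkx at 0.913. Scx, of which the ScxHt and Dicer cKO mice carry 1 knock-in allele, had 1055, 686 and 371 reads. In ScxHt/Control the tendon fibroblast median was 0.31, and in Dicer cKO/ScxHt it was -0.87. In ScxHt/Control, 9 of the 12 had intervals above 1, beside 26.4% of all genes, and 3 had intervals below 1, beside 23.7%. The summed share of the 12 was lower in ScxHt than in Control, as were Col1a1 at 0.704 and Col1a2 at 0.890. When the libraries were scaled to the median ratio of the tendon fibroblast genes without Scx, in place of all genes, 1 of the 10 genes, Sox9, was below 0.60 in Dicer cKO/Control and 1, Matn3, was above the upper threshold, and their median log2 ratio was -0.01. On that scale the ratio was 0.388 (0.318 to 0.471) for Sox9, 0.608 for Chad, 0.644 for Cilp2, 0.699 for Comp and 0.884 for Acan. Sox5, Cilp, Hapln1 and Sox6 were above 1, at 1.11, 1.14, 1.5 and 1.64. In ScxHt/Control on that scale, Sox9 was at 0.585, Cilp2 at 0.714, Chad at 0.804 and Hapln1 at 1.47. These ratios say how each gene stood relative to the tendon fibroblast genes. With that scaling, the median log2 ratio of all genes was 0.57 in Dicer cKO/Control and -0.30 in ScxHt/Control. The same scaling put 0.435% of all genes below 0.60 and 30.8% above the upper threshold in Dicer cKO/Control.

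**Figure D5:**
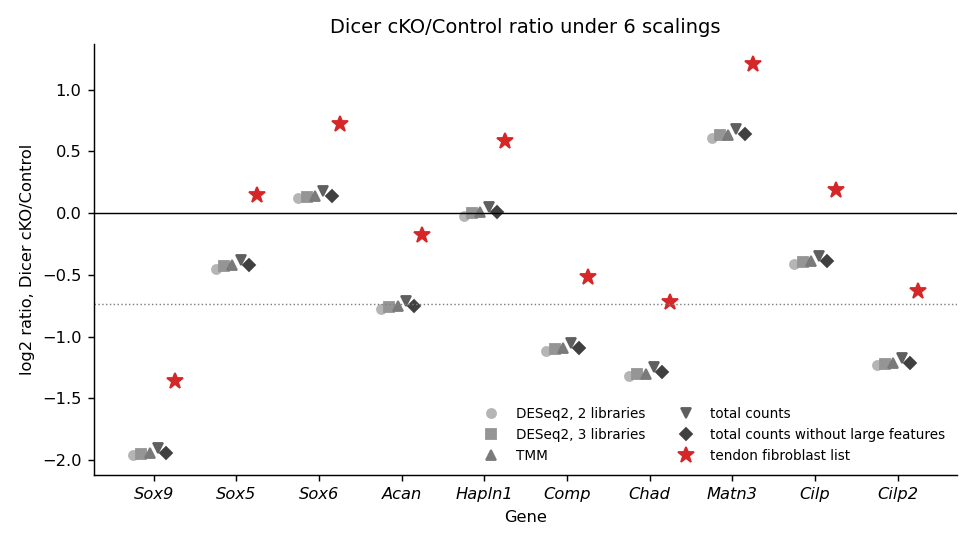
Log2 ratio of each gene in Dicer cKO/Control under 6 scalings of the libraries (grey, scalings over all genes or total counts; red stars, scaling to the tendon fibroblast genes), with a solid line at 0 and a dotted line at the log2 of 0.60. Sox9 stays below the dotted line under all 6, and under the tendon fibroblast scaling the other 9 genes lie above it.

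Markers of other cells also differed between the libraries. All 5 erythroid genes were above the upper threshold in Dicer cKO/Control (median log2 ratio 1.18), beside 3.87% of all genes. They held 0.0189%, 0.0194% and 0.0461% of the counts of Control, ScxHt and Dicer cKO. The 7 macrophage genes held 0.0227%, 0.0424% and 0.0179%. In ScxHt/Control, 6 of these 7 were above the upper threshold, beside 3.05% of all genes. This was the direction of Hapln1, Cilp, Comp and Acan. In Dicer cKO/ScxHt all 7 were below 0.60, beside 5.68% of all genes. Endothelial genes held 0.0605%, 0.0448% and 0.0726%, and adipocyte genes 0.0745%, 0.0897% and 0.0798%. Of genes shared by bone and mineralizing fibrocartilage, Spp1 had 5412, 9579 and 1506 reads and Ibsp 2141, 3033 and 583, both highest in ScxHt and lowest in Dicer cKO. The part of these cells in the values of the 10 genes was not tested.

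The genes whose ratios lay nearest to those of Sox9 and Comp were sought among 13118 genes, by the distance between the log2 ratios of Dicer cKO/Control and ScxHt/Control over the 3 libraries. Nearest to Sox9 were Nbl1, a secreted antagonist of bone morphogenetic proteins (1664, 1342 and 463 reads, distance 0.195), Slurp1 (118, 109 and 28), RP23-332K10.1 (280, 260 and 80), RP24-555M20.3 (165, 123 and 53) and the nuclear receptor Nr4a3 (906, 581 and 279, distance 0.402). Nearest to Comp were Emb (864, 1170 and 393 reads, distance 0.045), Crispld2, Chst12, a chondroitin sulphotransferase, Kcnab2 and Ackr4 (distance 0.082). With 3 libraries, this likeness rests on 2 ratios per gene.

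Small RNA-seq of the same tendons gave the miRNAs known from cartilage. Mir140, whose loss in mice disturbs cartilage growth, lies within the gene Wwp2, and Mir455 within Col27a1. The mature sequences given by RefSeq (GRCm38.p6) are shown, 5′ to 3′, because these are the miRNAs of the cartilage programme, with the seed (bases 2 to 8) in capitals. No mature sequence of miR-140-5p or miR-145a was available here, so neither is shown. No pair of the sequences shown shares a seed.
mmu-miR-140-3p: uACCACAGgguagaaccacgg
mmu-miR-455-5p: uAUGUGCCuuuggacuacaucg
mmu-miR-455-3p: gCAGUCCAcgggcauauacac
mmu-miR-1247-5p: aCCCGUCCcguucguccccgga
mmu-miR-1247-3p: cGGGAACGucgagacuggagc

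Counts in the small RNA-seq table are per locus, so the arms of a precursor cannot be told apart. Mir140 had 29002 reads in Control, 25733 in ScxHt and 19817 in Dicer cKO. Control and ScxHt were alike, with a ratio of 1.0 (0.983 to 1.02), and Dicer cKO was lower, at 0.783 (0.769 to 0.797) of Control. Its host gene Wwp2 had 1323, 3138 and 1332 reads in RNA-seq, highest in ScxHt, at 2.27 times Control. Mir455 had 455, 450 and 458 reads, a Dicer cKO/Control ratio of 1.15 (1.01 to 1.32). Mir145a, which is known to act on Sox9 mRNA and is abundant in smooth muscle, had 1939, 1999 and 2585 reads and was highest in Dicer cKO, at 1.53 (1.44 to 1.62) of Control. Mir1247, also known to act on Sox9 mRNA, had 39, 20 and 6 reads. It was lowest in Dicer cKO, at 0.176 (0.0610 to 0.419) of Control, and at 0.578 (0.319 to 1.01) in ScxHt/Control, where the interval holds 1. So, of the 4 loci, 1 was below 0.60 in Dicer cKO/Control, beside 4.19% of the 334 small RNA features above a baseMean of 15, and the same locus in ScxHt/Control, beside 6.93% of 332.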

How the data were processed

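RNA-seq and small RNA-seq of Achilles tendon gave 1 library per genotype and assay. As described in the study's methods, the authors removed adaptors, used TopHat with Bowtie2 for mapping to GRCm38, and counted reads per gene in HTSeq. The raw count of each gene was deposited without normalization, and RPKM values for each library were deposited beside it. Versions, annotation release and strand setting are not given in the sources used here, so reads of antisense partners cannot be told apart.

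For each comparison, counts were divided by DESeq2 1.42.0 median-of-ratios size factors (R 4.3.3) of the 2 libraries compared. Ratios had 95% Clopper-Pearson intervals, from scipy 1.17.1 under Python 3.11.15 (pandas 2.3.3, numpy 2.4.6), and intervals of gene pairs used the normal approximation on the log scale. The minimum baseMean was 50 for genes and 15 for small RNA loci. RPKM served to compare levels between genes. With 1 library per genotype, no p-value was computed. The procedure was tested on simulated data. Figures were drawn with matplotlib 3.10.9. Positions came from GENCODE vM21 and sequences from RefSeq GRCm38.p6, matched by symbol. Named were all 10 genes, list members past a threshold or defining a list, and the 5 genes nearest to Sox9 and to Comp. The value of 1 list member is not reported here. Genes, lists and motifs were chosen with earlier results of these data known. Alternatives were edgeR 4.0.16 TMM scaling, other size factors, total counts, the tendon fibroblast scaling, other minimum baseMeans, a pseudocount of 1, other thresholds, and whole intervals past the threshold.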

Additional observations from a re-analysis of the deposited data

How the results depend on the processing

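No paired analysis was possible because each genotype had 1 library. For the same reason no replicate could be left out. Scaling to the tendon fibroblast genes moved the results most. In Dicer cKO/Control it gave 1 gene below 0.60, 1 above the upper threshold and a median log2 ratio of -0.01. In ScxHt/Control it gave 1 below, 0 above and a median of -0.13, and in Dicer cKO/ScxHt 0 below, 2 above and a median of -0.09. Of all genes, this scaling put 0.435% below and 30.8% above in Dicer cKO/Control. The shares were 12.7% and 0.736% in ScxHt/Control and 0.203% and 66.6% in Dicer cKO/ScxHt. Under it the Dicer cKO/ScxHt ratio of Hapln1 reversed to 1.04. By construction this scaling sets the median tendon fibroblast gene at a ratio of 1, and the all-gene medians were 0.57, -0.30 and 0.90. Total counts, which put the all-gene median of ScxHt/Control at 0.12, gave medians of 0.29 in ScxHt/Control and -1.08 in Dicer cKO/ScxHt, and 0 cartilage miRNA loci below 0.60 in ScxHt/Control. A minimum baseMean of 200, which leaves out Matn3, gave medians of -0.78 in Dicer cKO/Control and 0.00 in ScxHt/Control. Ratio thresholds of 2 and 0.5 left 0 genes above in ScxHt/Control. The other 84 recomputed counts and medians stayed close, counts within 1.5 times and medians within counting error. Of the values of single genes and loci, 241 stayed within their counting interval and 49 moved without reversing. Counting intervals say nothing of differences between mice, and Matn3 and Mir1247 rest on few reads.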
